A study of Mus musculus with 9 samples.

Results

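The genes described here are 10 structural and cytosolic genes by which neurons are commonly recognised, measured in the mouse trigeminal ganglion (TG) after inflammation of the temporomandibular joint (TMJ). They were chosen by name, with earlier results of these data known. By role, the intermediate filament subunits were Nefh, Nefm, Nefl, Prph and Ina, the microtubule genes were Tubb3, Map1b and Stmn2, and the cytosolic proteins were Uchl1 and Sncg. In GRCm38 with GENCODE M21, Nefh lies on chromosome 11 (4938754 to 4948064, - strand), Nefm on chromosome 14 (68082590 to 68124846, - strand), Map1b on chromosome 13 (99421446 to 99516540, - strand) and Uchl1 on chromosome 5 (66676091 to 66687234, + strand). All 10 were found among the 21809 gene sums of the mRNA table, where a gene sum adds the FPKM (fragments scaled to transcript length and library size) of all transcripts of a gene, and all 10 passed the filter on low values.

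The study injected complete Freund's adjuvant (CFA), an oil emulsion with killed mycobacteria that sets off lasting inflammation, or saline into 1 TMJ of wild-type male C57BL/6 mice aged 8 weeks. The injected volume was 10 µl in each group, with CFA at 5 mg/ml. The groups were saline, CFA3D (taken on day 3 after CFA) and CFA6D (taken on day 6), with 3 libraries each, and the saline libraries are labelled day 3, so day 6 has no saline group of its own. Each library pooled TG tissue from 3 mice, so the spread between libraries is a spread between pools, and punches of the ganglion hold neurons together with satellite glia, Schwann cells, vessels and connective tissue.

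Neurofilaments are the intermediate filaments of axons. They are copolymers in which the light chain (Nefl) forms the core and the medium (Nefm) and heavy (Nefh) chains carry long side arms, and they are most abundant in large myelinated sensory neurons, whereas peripherin (Prph) is the typical filament of small, mostly unmyelinated ones. Alpha-internexin (Ina) is chiefly a subunit of central neurons. Tubb3 is the neuronal class of beta-tubulin, Map1b binds and stabilises axonal microtubules, and stathmin-2 (Stmn2, also SCG10) binds free tubulin in growing axons. Uchl1 (PGP9.5) is a ubiquitin hydrolase used as a general neuron marker, and gamma-synuclein (Sncg) is a presynaptic and axonal protein abundant in sensory ganglia.

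The FPKM values corresponded to about 30060000 to 42330000 read pairs per library, as estimated from their smallest steps. The paper gives read totals per group, which are larger than these estimates would add up to. Several libraries stood apart in genes of neighbouring tissues. Pituitary markers summed to 10656 FPKM in saline replicate 3, 1115 FPKM in CFA6D replicate 4 and 409 FPKM in CFA6D replicate 5, against 8.89 to 99.7 FPKM in the other libraries. Neutrophil and marrow markers summed to 2630 FPKM in CFA6D replicate 6 against 23.6 to 132 FPKM elsewhere, and muscle markers reached 158 FPKM in saline replicate 2. Many of the results that rest on saline replicate 3 or CFA6D replicate 6 are given below with and without them. The ratios between genes are given with all libraries only.

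RefSeq promoter sequence (GRCm38.p6) was at hand for 6 of the 10 genes, namely Prph, Ina, Tubb3, Map1b, Uchl1 and Sncg. Shown are the 250 bases upstream of the RefSeq start for Prph and Tubb3, whose levels ran closest together over the libraries, and for Map1b and Uchl1, which were among the genes higher on day 6. Capitals mark 3 motifs searched on both strands, namely the TATA box core (TATAA), the GC box (GGGCGG) and the CCAAT box. The Prph window is chr15:99054924-99055173 (+), the Tubb3 window chr8:123411303-123411552 (+), the Map1b window chr13:99516603-99516852 (-) and the Uchl1 window chr5:66675871-66676120 (+).
Prph: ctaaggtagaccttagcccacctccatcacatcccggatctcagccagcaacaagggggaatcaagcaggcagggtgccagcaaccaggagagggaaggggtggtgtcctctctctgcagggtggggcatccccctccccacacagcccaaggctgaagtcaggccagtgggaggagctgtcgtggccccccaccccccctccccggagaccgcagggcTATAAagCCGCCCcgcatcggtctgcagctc
Tubb3: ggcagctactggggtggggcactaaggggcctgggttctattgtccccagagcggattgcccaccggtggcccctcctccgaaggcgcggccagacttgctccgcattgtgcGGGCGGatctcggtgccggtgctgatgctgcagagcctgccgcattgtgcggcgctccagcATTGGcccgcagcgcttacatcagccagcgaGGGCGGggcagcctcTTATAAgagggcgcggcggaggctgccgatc
Map1b: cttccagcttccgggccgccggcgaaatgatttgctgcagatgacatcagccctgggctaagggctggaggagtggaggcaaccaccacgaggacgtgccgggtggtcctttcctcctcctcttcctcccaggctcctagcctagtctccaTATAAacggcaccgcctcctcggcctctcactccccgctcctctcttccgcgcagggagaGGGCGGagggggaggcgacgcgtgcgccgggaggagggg
Uchl1: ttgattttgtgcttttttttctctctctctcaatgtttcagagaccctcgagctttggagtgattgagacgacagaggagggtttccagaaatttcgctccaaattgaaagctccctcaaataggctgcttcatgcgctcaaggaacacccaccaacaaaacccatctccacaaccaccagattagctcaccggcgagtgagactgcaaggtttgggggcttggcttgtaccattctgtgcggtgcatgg
Prph and Tubb3 each hold a TATAA match that begins 31 bases before the RefSeq start, the 2 overlapping matches in Tubb3 being 1 site read on both strands. The Map1b match lies 99 bases before its start, and the Uchl1 window holds none of the 3 motifs. Among all 32851 promoters of the table, 22.8% hold the TATA box core, 32.7% the GC box and 33.8% the CCAAT box in the same 250 bases. The RefSeq start lies 7 bases from the GENCODE start of the main transcript for Prph, 30 for Uchl1, 62 for Map1b and 129 for Tubb3, so the windows are not centred alike on the transcripts measured. The main Tubb3 transcript starts at 123411424, inside its window and before the TATAA match. That of Uchl1 also starts inside its window, at 66676091.

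With 1 exception, the genes were among the most abundant mRNAs of the ganglion. Ordered by mean FPKM, which is per length, they ran from Sncg (rank 13 of all gene sums, 763 FPKM) through Tubb3 (605 FPKM), Nefl (592 FPKM), Uchl1 (585 FPKM), Map1b (450 FPKM), Prph (317 FPKM), Nefm (298 FPKM) and Nefh (227 FPKM) to Stmn2 (rank 117, 202 FPKM). The ranges over the libraries overlapped between neighbours throughout this order. Ina stood far below at 3.63 FPKM (rank 9963). Together the 10 genes made up 1.38% to 2.02% of all FPKM in the mRNA table, lowest in saline replicate 3 and highest in CFA6D replicate 4.

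**Figure D1:**
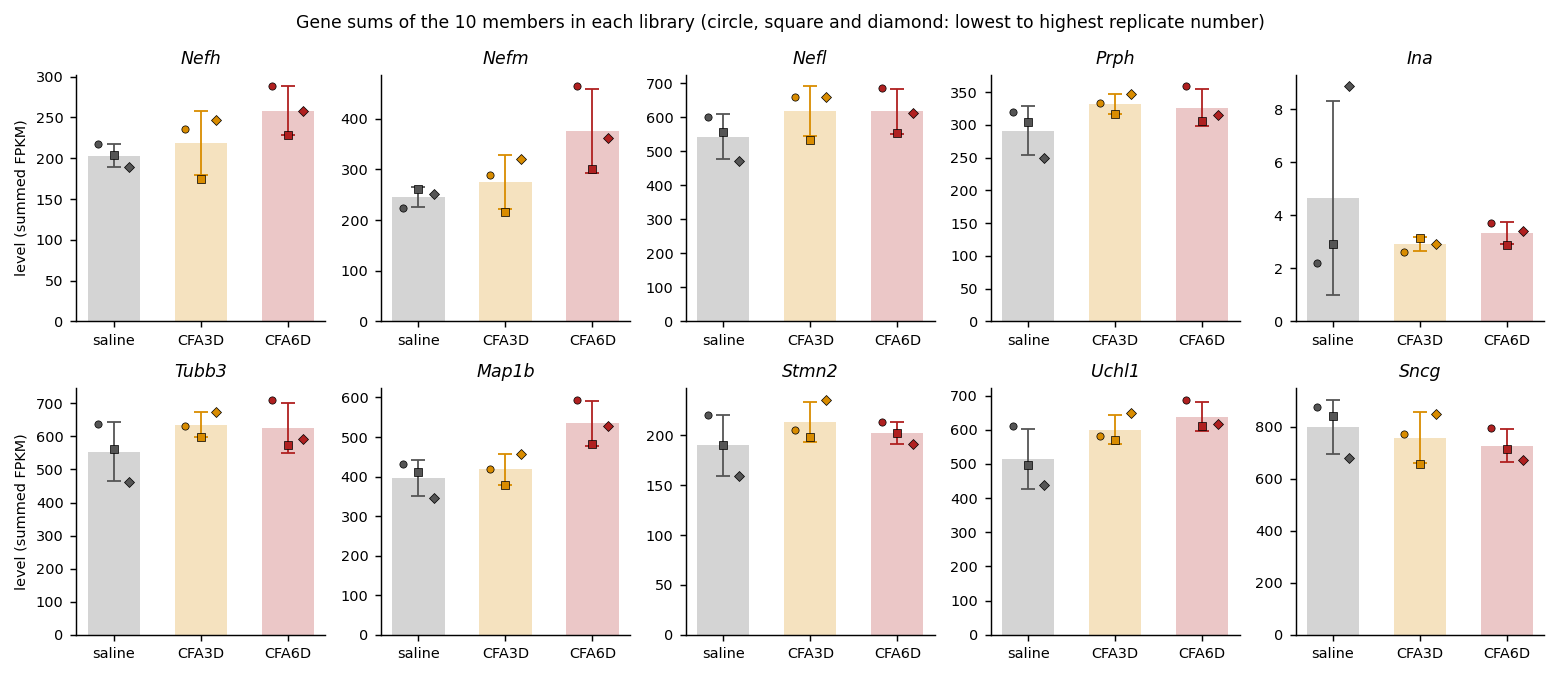
Level of each of the 10 genes as summed FPKM in saline, CFA3D and CFA6D libraries (points), with the mean (bar) and SD (error bar) of 3 libraries per group. Nefh, Nefm and Map1b lie higher in every CFA6D library than in every saline library, and Ina is highest in saline replicate 3 at 8.86 FPKM.

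To ask whether TMJ inflammation shifted these genes, the groups were compared on log2(FPKM + 0.1) with limma over all 16096 gene sums that averaged at least 0.1 FPKM. A gene is called here at an unadjusted limma p under 0.05, the cutoff of the study, and no gene sum of any kind reached a Benjamini-Hochberg adjusted p under 0.05 in any comparison (0 of 16096 each, with 717 at an unadjusted p under 0.05 on day 3 and 1781 on day 6). In whole tissue, fewer cells of a type and less RNA per cell cannot be told apart. Both CFA groups were compared with the same saline libraries.

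On day 6, 4 of the 10 genes were higher than in saline and 0 were lower, against 11.1% of all gene sums called in either direction (8.22% higher). The 4 were Nefm, Map1b, Nefh and Uchl1. The libraries of Nefm, Map1b and Nefh did not overlap with saline, which held for 10.7% of all gene sums in the upward direction. The median log2 change was 0.18 over the 10 genes and 0.03 over all gene sums.

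Nefm moved most. It measured 223, 261 and 250.3 FPKM in saline replicates 1, 2 and 3, 289, 215 and 319.8 FPKM in CFA3D replicates 1, 2 and 3, and 464, 300.2 and 361 FPKM in CFA6D replicates 4, 5 and 6. Every CFA6D library lay above every saline library, CFA6D replicate 4 was the highest of all, and the CFA3D libraries spread on both sides of saline. The log2 difference from saline was 0.60 on day 6 (SE 0.19, limma adjusted p = 0.270) and 0.15 on day 3 (SE 0.19, limma adjusted p = 0.997). The day 6 difference ran from 0.43 to 0.75 when single libraries were left out and stayed past the unadjusted threshold each time.

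Nefh, whose product is the largest of the 3 chains, measured 217, 204 and 189 FPKM in saline, 236, 174 and 247 FPKM in CFA3D and 288, 229 and 258 FPKM in CFA6D. CFA6D was above saline in each library, and CFA3D replicate 2 was the lowest library of all. The log2 difference was 0.34 on day 6 (SE 0.15, limma adjusted p = 0.430) and 0.09 on day 3. The day 6 call was lost without any 1 of saline replicate 2 or 3, CFA3D replicate 1, or CFA6D replicate 4 or 6, where the difference was 0.26 to 0.34.

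Nefl, the core subunit, did not pass in any comparison. It measured 599.9, 558 and 471 FPKM in saline, 660.0, 532 and 659 FPKM in CFA3D and 685, 554 and 613 FPKM in CFA6D, and the 3 groups overlapped. Its log2 differences from saline were 0.19 on both days (95% interval on day 6 from -0.14 to 0.52). Without saline replicate 3, its lowest saline library, the day 6 difference was 0.09.

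The ratios of Nefm and of Nefh to Nefl, in which any shift common to both genes of a library cancels, set the CFA6D libraries apart from the others. Nefm stood at 0.457 ± 0.081 of Nefl in saline, 0.443 ± 0.040 in CFA3D and 0.602 ± 0.068 in CFA6D (SD, n = 3), and the lowest CFA6D library (0.542) was above the highest of the others (0.532). Nefh stood at 0.376 ± 0.022, 0.353 ± 0.023 and 0.418 ± 0.0045 of Nefl, again with the CFA6D libraries on top. An exact two-sided permutation test gave p = 0.1 for each of these day 6 differences from saline, which is the smallest that 3 against 3 libraries allow (adjusted p = 0.291 over 32 such tests). The ratio of Nefm to Nefh, 1.21 ± 0.16 in saline, 1.25 ± 0.039 in CFA3D and 1.44 ± 0.15 in CFA6D, overlapped between CFA6D and saline (exact permutation p = 0.2, adjusted p = 0.457).

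Prph, the filament of small neurons, did not pass either. It measured 320.0, 304 and 249 FPKM in saline, 334, 316 and 347 FPKM in CFA3D and 359, 306 and 315 FPKM in CFA6D, with CFA3D replicate 2 (316 FPKM) below saline replicate 1. Its ratio to Nefl averaged 0.536, 0.542 and 0.530 in the 3 groups. The log2 differences were 0.20 on day 3 and 0.17 on day 6, and neither passed. Without saline replicate 3, the lowest library, the day 6 difference was 0.06.

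Ina was low and was set by 1 library. It measured 2.20, 2.92 and 8.86 FPKM in saline, 2.63, 3.15 and 2.94 FPKM in CFA3D and 3.70, 2.88 and 3.40 FPKM in CFA6D. The value of 8.86 FPKM was in saline replicate 3, the library with 10656 FPKM of pituitary markers, and the part of those cells in it was not tested. The day 6 difference from saline was -0.22 with this library and 0.37 without it, the day 3 difference -0.40 and 0.19, and none of the 4 passed. About 219 to 1156 read pairs lay behind Ina per library, against at least 11850 for the others.

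**Figure D2:**
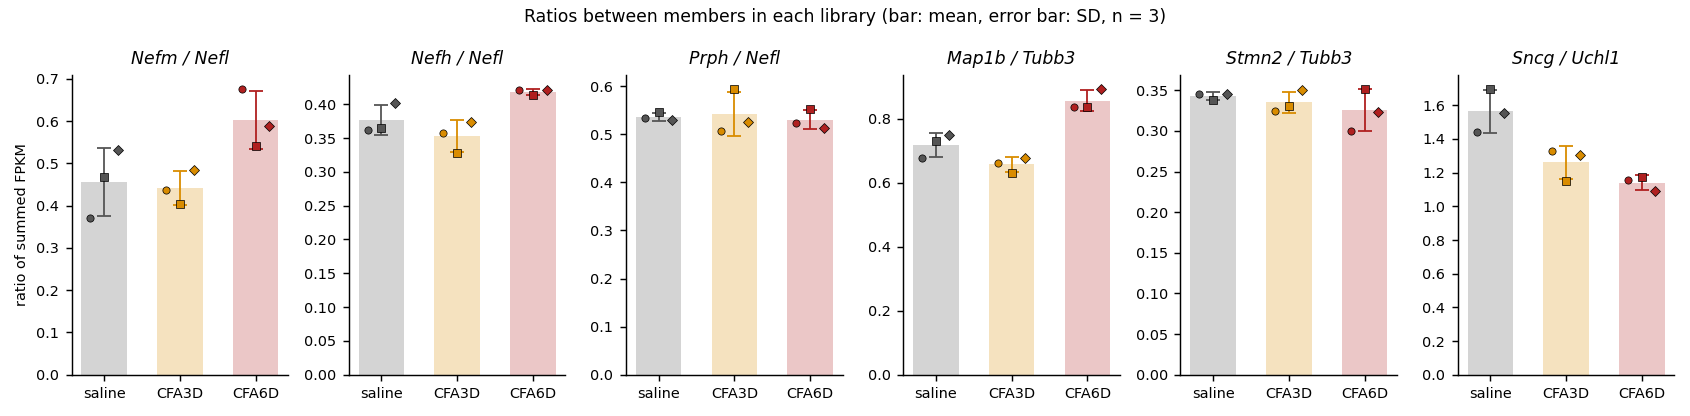
Ratio of the summed FPKM of 2 genes in each library, with the mean (bar) and SD (error bar) of 3 libraries per group. Nefm to Nefl, Nefh to Nefl and Map1b to Tubb3 are higher in every CFA6D library than in the other 6, Prph to Nefl and Stmn2 to Tubb3 overlap between groups, and Sncg to Uchl1 is lower in all 6 CFA libraries than in saline.

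Among the microtubule genes, Map1b was the one called. It measured 432, 411 and 346 FPKM in saline, 419, 378 and 457 FPKM in CFA3D and 595, 481 and 529 FPKM in CFA6D. All CFA6D libraries exceeded all saline and all CFA3D libraries, while CFA3D and saline overlapped. The log2 difference from saline was 0.43 on day 6 (SE 0.13, limma adjusted p = 0.261) and 0.08 on day 3, and the day 3 value turned to -0.01 without saline replicate 3. Leaving out single libraries gave 0.34 to 0.51 on day 6 with the call kept, and leaving out saline replicate 3 and CFA6D replicate 6 together gave 0.35 and lost the call.

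Tubb3 measured 637, 563 and 462 FPKM in saline, 633, 599 and 674 FPKM in CFA3D and 711, 574 and 592 FPKM in CFA6D. The groups overlapped, saline replicate 3 being the lowest, and the log2 differences of 0.21 on day 3 and 0.18 on day 6 did not pass. With single libraries left out they fell to as little as 0.08 on day 3 and 0.06 on day 6. Stmn2 measured 221, 190.1 and 159 FPKM in saline, 206, 198 and 236 FPKM in CFA3D and 214, 202 and 192 FPKM in CFA6D. Its groups overlapped too, and the log2 differences were 0.17 on day 3 and 0.10 on day 6, the latter turning to -0.02 without saline replicate 3.

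Map1b relative to Tubb3 was 0.719 ± 0.037 in saline, 0.657 ± 0.024 in CFA3D and 0.856 ± 0.033 in CFA6D (SD, n = 3). The CFA6D libraries lay above the other 6 (exact permutation p = 0.1 against either group). Stmn2 relative to Tubb3 averaged 0.343, 0.335 and 0.325 with overlapping groups.

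Uchl1 measured 610.1, 496 and 438 FPKM in saline, 581, 570.4 and 649.5 FPKM in CFA3D and 689, 609.9 and 618 FPKM in CFA6D. The CFA6D libraries overlapped with saline slightly, the lowest lying just under saline replicate 1. The log2 difference was 0.32 on day 6 (SE 0.14, limma adjusted p = 0.444) and 0.23 on day 3. This call was lost on leaving out any library except saline replicate 1, and without saline replicate 3 the difference was 0.21. It was lost too under median-ratio scaling (0.29), as was that of Nefh (0.31).

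Sncg, the most abundant of the 10, measured 878, 842 and 681 FPKM in saline, 773, 656 and 848 FPKM in CFA3D and 796, 715 and 673 FPKM in CFA6D. It overlapped between all groups, with log2 differences of -0.08 on day 3 and -0.13 on day 6 (95% interval on day 6 from -0.48 to 0.21), and both turned positive under quantile normalization (0.07 and 0.05). Relative to Uchl1 it was 1.56 ± 0.13 in saline, 1.26 ± 0.10 in CFA3D and 1.14 ± 0.044 in CFA6D. All 6 CFA libraries lay below all 3 saline libraries (exact two-sided permutation p = 0.0238 for both days against saline, adjusted p = 0.291 over 32 tests). With such a full separation this p is fixed, as the smallest that 6 against 3 libraries allow.

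On day 3, 0 of the 10 genes were called by limma, against 4.45% of all gene sums, and the libraries of 0 separated from saline, against 9.13% of all gene sums. The log2 differences ran from -0.40 (Ina) to 0.23 (Uchl1), 8 of 10 were above 0 (64.6% of all gene sums), and the median was 0.16 against 0.05 over all gene sums. Uchl1 passed under quantile normalization (0.30), and without saline replicate 1 both Uchl1 (0.36) and Stmn2 (0.29) passed.

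Between the CFA days, 2 of 10 genes were called, both higher on day 6, against 7.39% of all gene sums. They were Nefm (log2 difference 0.45, SE 0.19, limma adjusted p = 0.666) and Map1b (0.35, SE 0.13, limma adjusted p = 0.641). Both calls were lost without any 1 of CFA3D replicate 1 or 2 or CFA6D replicate 4 or 6, and Nefm also without saline replicate 2 or 3. Nefl differed by 0.00 between the days (95% interval -0.33 to 0.33), Prph and Tubb3 by -0.03 each.

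With both CFA days pooled against saline, 2 of 10 genes were called, against 8.19% of all gene sums. Nefm was higher by 0.37 and Uchl1 by 0.28, while Map1b at 0.26 missed the threshold. The number called ran from 0 to 5 when single libraries were left out, with 0 without saline replicate 2 or 3, CFA3D replicate 1 or 3, or CFA6D replicate 4 or 6, and 5 without saline replicate 1.

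**Figure D3:**
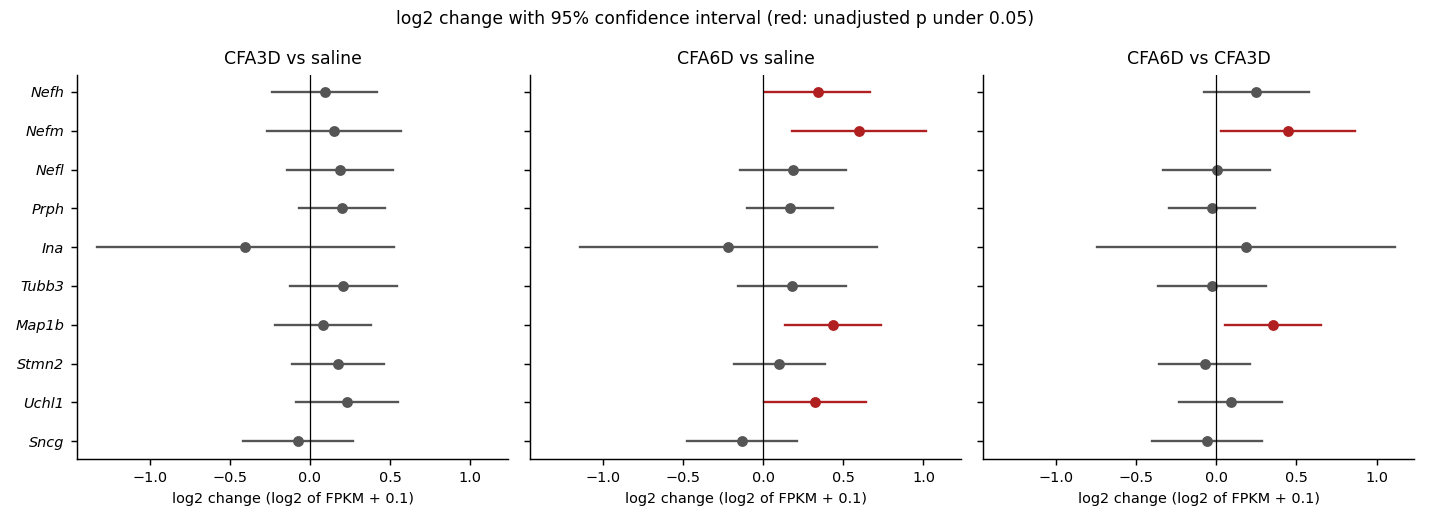
Difference on the log2(FPKM + 0.1) scale with its 95% confidence interval from limma for each gene, in CFA3D against saline, CFA6D against saline and CFA6D against CFA3D. Intervals in red have an unadjusted p under 0.05, which is 0 genes on day 3, 4 on day 6 and 2 between the days.

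The 10 genes are listed with 26 transcripts, 22 of which averaged at least 1 FPKM. Nefh, Nefl, Ina and Sncg have 1 transcript each. At the transcript level 6 of the 22 were called on day 6 (Nefh-201, Nefm-201, Nefm-202, Map1b-201, Uchl1-201 and Stmn2-202), all higher, against 6.81% of the 66206 transcripts tested. On day 3, 2 were called (Prph-201 and Uchl1-201), against 4.67%, and between the days 3 were (Nefm-201, Map1b-201 and Stmn2-202), against 5.43%. With no filter on low values, 2 of the 22 were called on day 6 and 0 on day 3. Where the libraries of a transcript are said below not to overlap, the share over all transcripts is not given. Over all gene sums that share was 9.13% in either direction on day 3 and 10.7% upward on day 6.

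The largest day 6 difference among the 22 was in Stmn2-202, which the annotation calls a retained intron. It spans 8509515 to 8548773 on chromosome 3 (+ strand, GRCm38) in 3 exons, and 3028 of its 3413 bases lie in the third intron of the coding transcript Stmn2-201 (8545746 to 8554791), where it ends before the next exon. It measured 2.06, 1.46 and 1.37 FPKM in saline, 2.97, 1.39 and 2.01 FPKM in CFA3D and 3.69, 4.25 and 4.03 FPKM in CFA6D. All CFA6D libraries stood above the other 6. The log2 difference from saline was 1.26 on day 6 (SE 0.27, limma adjusted p = 0.387) and 0.32 on day 3.

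Stmn2-201, which carried 98.2% of the gene sum, differed by only 0.09 on day 6. The Stmn2-202 difference ran from 1.15 to 1.43 without single libraries and kept its call in each. It remained a small fraction of the gene, 0.855% ± 0.082 of the Stmn2 sum in saline and 1.98% ± 0.22 in CFA6D (SD, n = 3).

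For Map1b, the coding transcript Map1b-201 (94.5% of the sum) was 0.45 higher on day 6 (SE 0.12, limma adjusted p = 0.485), whereas the other coding transcript, Map1b-203, at 4.82 to 7.32 FPKM, gave -0.14. The retained-intron transcript Map1b-204 gave 0.02, Map1b-206 gave 0.29 and Map1b-205 gave 0.20, and none of these passed.

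Uchl1-201 (88.2% of the sum) measured 505, 439 and 391 FPKM in saline, 513, 498 and 568 FPKM in CFA3D and 622, 549 and 555 FPKM in CFA6D, so that unlike the gene sum it separated CFA6D from saline. The log2 difference was 0.38 on day 6 (SE 0.10, limma adjusted p = 0.511) and 0.25 on day 3 (limma adjusted p = 0.989). The day 3 call was lost without saline replicate 2 or 3 or CFA3D replicate 1 or 3. The annotation calls its 3 other transcripts retained introns. Only 5 of the 228 bases of Uchl1-204 and 52 of the 980 of Uchl1-202 lie in an intron of Uchl1-201, against 398 of 491 for Uchl1-203. Uchl1-204 and Uchl1-202 were highest in saline replicate 1, at 63.9 FPKM and 21.9 FPKM, and Uchl1-203 in CFA3D replicate 3, at 23.4 FPKM. On day 6 Uchl1-204 gave 0.20, Uchl1-202 -0.84 and Uchl1-203 -0.13, with none called.

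Prph-201 (82.5% of the sum) measured 260.2, 247 and 204 FPKM in saline and 279, 271 and 287 FPKM in CFA3D, and these did not overlap. It was 0.24 higher on day 3 (SE 0.10, limma adjusted p = 0.989) and 0.17 on day 6. The day 3 call was lost without saline replicate 3, any 1 CFA3D library or CFA6D replicate 6. Prph-203 gave -0.11 on day 3 and 0.15 on day 6, Prph-204 gave 0.18 and 0.01, and Prph-202 gave 0.91 and 0.95 at 0.588 to 4.81 FPKM, none of them called.

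**Figure D4:**
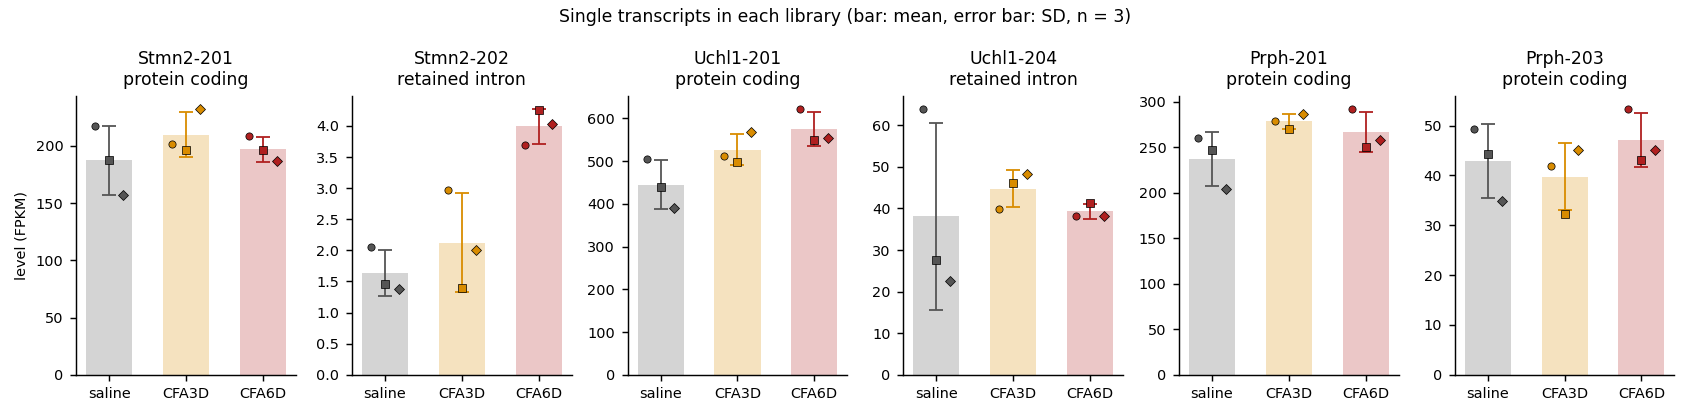
FPKM of 6 single transcripts of Stmn2, Uchl1 and Prph in each library, with the mean (bar) and SD (error bar) of 3 libraries per group. Stmn2-202 lies between 3.69 and 4.25 FPKM in CFA6D and at most 2.97 FPKM in the other libraries, while Stmn2-201 overlaps between groups.

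The annotation places Nefl (chromosome 14, 68083863 to 68089095, + strand) within the span of Nefm-202 on the opposite strand, and Nefm-202 itself made up under 1% of the Nefm sum. It measured 0.960 to 2.45 FPKM and was 0.64 higher on day 6 (SE 0.25, limma adjusted p = 0.686). That call was lost without saline replicate 1 or 3 or CFA6D replicate 4 or 6. The libraries were made strand-specific per the methods, but whether the counting used the strand was not given in the sources used here.

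Over the 9 libraries the genes fell into loosely joined sets, described here by Pearson's r of log2(FPKM + 0.1) over libraries that share their group, depth and tissue makeup. Prph and Tubb3 ran closest together (r = 0.987), with Nefl near both (r = 0.923 and 0.915) and at 0.835 with Nefh. Tubb3 also ran with Stmn2 (r = 0.914) and Uchl1 (r = 0.909). Without saline replicate 3, Nefl gave 0.877 with Prph, 0.834 with Tubb3 and 0.837 with Nefh, so it then belonged to no single set. Nefh ran with Map1b (r = 0.912) and Nefm (r = 0.910), and Nefm with Map1b (r = 0.873). Sncg ran from r = 0.066 with Nefm and 0.275 with Uchl1 to 0.628 with Stmn2 among the genes other than Ina. Ina was negative with all but Nefm (r = 0.040), down to -0.794 with Stmn2. Without saline replicate 3, Prph with Tubb3 was 0.971, Nefm with Map1b 0.925 and Sncg with Uchl1 0.00095, and Ina was negative only with Stmn2 (-0.290) and Sncg (-0.498).

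Of 13165 other gene sums averaging at least 1 FPKM, those most like the mean profile of Nefh, Nefm and Nefl were Lgi2 (r = 0.978), Atp8a2 (r = 0.971), Map7d2 (r = 0.963), Sorcs3 (r = 0.963) and Tmem229b (r = 0.961). Lgi2 ran from 11.6 FPKM in CFA3D replicate 2 to 20.1 FPKM in CFA6D replicate 4. Those most opposed were Zgpat (r = -0.960), BC034090 (r = -0.955), Gata2 (r = -0.946), Qpct (r = -0.941) and Zmym6 (r = -0.940). The highest and lowest values among so many genes over 9 libraries are extremes by selection.

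Other cytoskeletal genes give the setting. Over all gene sums, 8.22% were called higher on day 6, and 4.45% were called in either direction on day 3. Of 21 other microtubule-binding genes, 7 were called higher and 0 lower on day 6, and likewise 7 and 0 on day 3 (median log2 change 0.17 and 0.13). Map1a, a relative of Map1b, went from 106 ± 9.7 FPKM in saline to 164 ± 14 FPKM in CFA6D (log2 difference 0.64, SE 0.10, limma adjusted p = 0.0861). Camsap3, which caps microtubule minus ends, was 0.41 higher on day 6. Stmn3, the most abundant of this list, gave -0.15 and did not pass.

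Of 17 axonal transport motor genes, 7 were called higher and 0 lower on day 6 (median 0.21), and 1 higher and 1 lower on day 3. The shares over all gene sums were 8.22% higher on day 6 and 4.45% in either direction on day 3. Dctn1, a dynactin subunit, was 0.41 higher on day 6 and Kif5a, a neuronal kinesin, 0.32 higher. Klc1 at 0.26 did not pass. Of 12 spectrin, ankyrin and linker genes, 5 were called higher and 0 lower on day 6 and 3 higher on day 3, led by plectin (Plec, from 53.5 ± 2.8 to 82.8 ± 9.3 FPKM on day 6, log2 difference 0.62, limma adjusted p = 0.0830). Sptan1 at 0.12 did not pass.

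Of 11 other intermediate filament genes, 2 were called higher on day 6, Synm (synemin, 0.58) and Sync (syncoilin, 0.28), against 8.22% of all gene sums. Gfap, the glial filament, gave -0.63 and did not pass, with 25.3 FPKM in CFA6D replicate 4 against 80.5 and 81.0 FPKM in the other two. Of 13 other tubulin genes, 2 were called higher on day 6, both gamma-tubulins (Tubg1 0.32 and Tubg2 0.37), while the abundant Tuba1a gave 0.01. Of 4 relatives of Sncg and Uchl1, 0 were called by limma on either day, Sncb giving 0.35 on day 6.

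The neuron lists differed in count, and 8.22% of all gene sums were called higher on day 6 (11.1% in either direction). On day 6, 8 of 11 genes of non-peptidergic neurons were called higher (median 0.41, Gfra2 0.64 and Ret 0.47), 4 of 15 general neuron genes (median 0.16, Rbfox3 0.67 and Syn1 0.67), and 2 of 8 peptidergic genes (Adcyap1 0.43 among them, with Calca at 0.10). Of 13 genes of large myelinated neurons, the class richest in neurofilament, 3 were called higher, including Cplx1 (0.33) and Scn8a (0.31), and 1 lower, Pvalb (-0.45). Of 13 nerve injury genes, 1 was called, Jun (0.47), while Atf3 gave 0.60 and Gap43 0.01. On day 3, 4 of 11 non-peptidergic (median 0.28), 2 of 8 peptidergic and 2 of 15 general neuron genes were called higher and 0 lower. Of the large myelinated genes 0 were called higher and 1 lower, and of the nerve injury genes Jun (0.30). Over all gene sums, 4.45% were called in either direction on day 3. Without single libraries these day 3 counts ran from 1 to 7 for the non-peptidergic and 0 to 4 for the peptidergic genes. Differences between these lists were not tested. Without CFA6D replicate 4, 5 non-peptidergic genes were called, and 3 of the spectrin, ankyrin and linker genes above. Without saline replicate 3 and CFA6D replicate 6 together, 3 of the microtubule-binding genes and 3 of the motor genes were called. When single libraries were left out, the calls on day 6 ran from 1 to 5 for the large myelinated, 1 to 3 for the peptidergic, 1 to 5 for the other intermediate filament and 1 to 3 for the tubulin genes.

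Of neutrophil and marrow markers, 1 of 7 was called higher on day 6 (S100a8, median of the list 1.97). S100a8 measured 901 FPKM in CFA6D replicate 6 against 45.0 and 40.0 FPKM in replicates 4 and 5. Of markers of the other cells of the ganglion, none of the lists that follow held a gene called higher on day 6. On day 6, 0 of 7 satellite glia, 0 of 9 Schwann cell and 0 of 7 endothelial markers were called by limma at the unadjusted threshold. Over all gene sums, 11.1% were called in either direction. Of fibroblast markers 3 of 7 were called lower (Lum -0.49 and Dcn -0.50 among them) and of macrophage markers 1 of 8 (C1qc -0.50), with 1 to 3 and 0 to 4 when single libraries were left out. The summed fibroblast level was 945 to 1183 FPKM in saline and 675 to 1102 FPKM in CFA6D, and was lowest in CFA6D replicate 4, the library in which Nefm, Nefh and Map1b were highest. Macrophage markers were lowest there too, at 54.9 FPKM against 79.1 to 141 FPKM in the others. The part of such differences in tissue makeup in the results was not tested.

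Transcript length and base composition moved with the day 6 differences. Over all gene sums split into 5 equal bins by the length of the main transcript, the median log2 difference on day 6 rose from -0.04 in the shortest to 0.06 in the longest, and over 5 bins of GC content from -0.03 to 0.09. Map1b (11808 bases) is in the longest bin and Nefh (3994 bases) and Nefm (3334 bases) are in the bin below it, as is Nefl (3380 bases), while Uchl1 (1177 bases) and Sncg (852 bases) are in the shortest. Across the genes described here, which are not independent replicates, the correlation of log2 length with the log2 difference was r = 0.45 on day 6 (0.65 over the 9 without Ina), -0.09 on day 3 and 0.69 between the days, against 0.07, 0.06 and 0.02 over all gene sums. Their part in the differences was not tested.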

How the data were processed

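Total RNA of 9 TG libraries was measured by RNA sequencing after ribosomal RNA removal. The authors deposited FPKM values per transcript, from reads trimmed and mapped to GRCm38 per the methods. The processing notes instead name Bowtie 0.12.2 and the build mm8. The transcript names matched GENCODE M21 (101539 of 102122), which gave gene names and positions, and 0 sample columns were left out.

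Transcript FPKM were summed by gene name. Gene sums and transcripts averaging at least 0.1 FPKM were put on the log2 scale after adding 0.1 FPKM and tested with limma (version 3.58.1, R 4.3.3) in 1 model of all 3 groups, with a mean trend and Benjamini-Hochberg adjustment over everything tested. Log2 changes on this scale understate those of low genes. Ratios were compared by exact permutation over libraries. On simulated data, a log2 change of 0.5 in gene sums on day 6 was found at an unadjusted p under 0.05 in 72% of 200 genes and at an adjusted p under 0.05 in 0%. The simulation drew noise for each gene independently. In the real libraries sets of genes also shift together, as the pituitary and marrow markers do, so these rates need not hold for them.

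Named genes were all 10 members, their transcripts averaging at least 1 FPKM, and from each of 22 other lists the most abundant gene and the 2 with the smallest p, plus the 5 most and 5 least similar to the neurofilament profile. Fewer are named where a list had fewer calls. Some genes that this rule selects are not reported here. The members and lists were chosen with earlier results of these data known. Saline and CFA3D libraries share replicate numbers, but same-numbered libraries did not deviate together (r = 0.06, -0.13 and 0.04), so they were not paired. Other scalings, pseudocounts and filters, and leaving out libraries, were tried. Python 3.11.15 and matplotlib 3.10.9 were used for the rest.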

Additional observations from a re-analysis of the deposited data

Results flagged for a closer look

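Between the CFA days, the test of the difference itself passed the unadjusted threshold in limma for Nefm (0.45 on the log2 scale, higher on day 6) and Map1b (0.35), and for the transcripts Nefm-201 (0.44), Map1b-201 (0.38) and Stmn2-202 (0.94). In all of them day 6 was the higher. The adjusted p was at least 0.641 for the 2 gene sums, and 0.916 for Stmn2-202 in limma.

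A signal outside the mRNA table was Uchl1os, an antisense lncRNA that overlaps the first exons of Uchl1 (chromosome 5, 66676091 to 66676498) on the opposite strand. It measured 0.419, 0.391 and 0.393 FPKM in saline, 0.494, 0.504 and 0.531 FPKM in CFA3D and 0.689, 0.525 and 0.455 FPKM in CFA6D. It was flagged because the lowest CFA library, at 0.455 FPKM, was above the highest saline library, so this separation is the rule that selected it. The share of lncRNAs that separate alike is not given here. The level was low, as 1 read pair in 1 kb was worth 0.024 to 0.033 FPKM. Whether reads of Uchl1 and of its antisense partner were told apart by strand was not given in the sources used here, and no test was run on it.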

How the results depend on the processing

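Calls rest on 3 pools per group at an unadjusted threshold. The depth, estimated from the FPKM values at 30060000 read pairs or more, limits Ina and the rarer transcripts most. Members called on day 6 fell from 4 to 2 with no filter on low values or median-ratio scaling, and to 1 without saline replicate 3 and CFA6D replicate 6, an alternative chosen after seeing the data. Between the days the 2 became 0 with no filter, 1 under median-ratio scaling, 1 with only the groups compared and 1 without those 2 libraries. For both days pooled, the 2 became 1 at a pseudocount of 1 and 0 with no filter, under median-ratio scaling and without those 2 libraries. On day 3 the 0 became 1 under quantile normalization. Leaving out single libraries gave 0 to 2 on day 3, 2 to 4 on day 6, 0 to 2 between the days and 0 to 5 for both days. Transcripts called became 0 on day 3, 2 on day 6 and 1 between the days with no filter, and ran over 0 to 5, 4 to 8 and 2 to 3 without single libraries.

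Signs turned in uncalled values. Sncg gave 0.067 on day 3, 0.052 on day 6 and 0.060 for both days under quantile normalization, which also gave Nefl -0.097 between the days. Median-ratio scaling gave 0.0013 for Prph and 0.0024 for Tubb3 between the days. Without saline replicate 3 and CFA6D replicate 6, Ina gave 0.19 on day 3, 0.35 on day 6 and 0.27 for both days, Map1b gave -0.014 on day 3 and Tubb3 gave 0.010 between the days. The cause of each was not tested.

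Without single libraries, day 3 values ran from -0.00063 to 0.25 for Nefh, -0.79 to 0.19 for Ina, -0.014 to 0.15 for Map1b, -0.19 to 0.025 for Sncg, -0.016 to 0.15 for Map1b-201, -0.065 to 0.12 for Map1b-204, -0.046 to 0.37 for Nefm-202, -0.25 to 0.036 for Prph-203, -0.16 to 0.13 for Uchl1-203 and -0.60 to 0.34 for Uchl1-202. Day 6 values ran from -0.61 to 0.37 for Ina, -0.018 to 0.22 for Stmn2, -0.27 to 0.014 for Map1b-203, -0.093 to 0.094 for Map1b-204, -0.11 to 0.13 for Prph-204, -0.036 to 0.20 for Stmn2-201 and -0.10 to 0.65 for Uchl1-204. Values between the days ran from -0.10 to 0.078 for Nefl, -0.098 to 0.018 for Prph, -0.12 to 0.032 for Tubb3, -0.12 to 0.0021 for Stmn2 and -0.16 to 0.028 for Sncg, and for both days from -0.70 to 0.28 for Ina.

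Of all gene sums called on day 6, 1323 of 1781 were higher, but 990 of 1975 under quantile normalization and 1097 of 1931 under median-ratio scaling. On day 3 these were 588 of 717, 291 of 499 and 238 of 484. With the replicate block over saline and CFA3D, 0 members were called, as without it, and 495 gene sums. Counts of calls in the other gene lists, over all alternatives on both days, changed by more than 1.5 times in 222 of 814 cases.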
